A study of Mus musculus with 12 samples.

Results

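The 37 genes described here make sterols and fatty acids or control those pathways, and were followed in mammary tumours of mice with and without the kinase Hunk. They were taken by gene symbol, and the probe set with the strongest mean signal stood for each gene. Of the 37 genes, 35 had a probe set, out of 12393 genes on the array, and 31 passed the filter on low signals among 6825 genes tested. Acat2 and Insig1 were not analysed here. By textbook function 19 of the genes form a sterol branch (the enzymes and the sterol carrier Stard4), 14 form a fatty acid branch (synthesis, elongation, desaturation and glycerolipid assembly), and 4 are the SREBP transcription factors and the Insig proteins that restrain them.

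All 12 arrays held total RNA of mammary gland tumours from female FVB mice with an MMTV-c-myc transgene, which drives c-Myc from the mouse mammary tumour virus promoter. 6 arrays carried the MMTV-c-myc/Hunk KO genotype, in which a neomycin cassette takes the place of the first exon of Hunk and the presumed promoter before it, and 6 carried MMTV-c-myc/Hunk WT. The females had been mated before they were monitored for tumours, and age at collection is not given in the sources used here. The deletion was made in E14 embryonic stem cells and the mice came from crosses of Hunk heterozygotes. The labels number the arrays within a genotype but do not say that each is a separate mouse, so the p-values here rest on the spread between arrays, which may be technical in part.

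Cholesterol is built from acetyl-CoA through mevalonate, squalene and lanosterol, and fatty acids are built from the same acetyl-CoA by ATP citrate lyase, acetyl-CoA carboxylase and fatty acid synthase. SREBP-2 mainly drives the sterol genes and SREBP-1 mainly the fatty acid genes, while Insig proteins hold both factors in the endoplasmic reticulum when sterols are plentiful. The lactating mammary gland is among the most lipogenic tissues, and AMPK, the best known relative of Hunk, switches off acetyl-CoA carboxylase by phosphorylation.

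Promoter sequences are shown for the 3 sterol genes with the smallest p-values (described below) and for Thrsp, the fatty acid gene whose change was largest with all 12 arrays included, because SREBP acts at sterol regulatory elements next to CCAAT boxes bound by NF-Y. RefSeq promoter windows of the GRCm38.p6 build were matched for 30 of the 37 genes. Each line gives the 150 bases before the transcription start, 5′ to 3′ on the gene's strand, with capitals marking CCAAT, which reads ATTGG where it lies on the opposite strand, and the sterol element TCACNCCAC, searched on both strands. The stretches are chr13:119690201-119690350 on the plus strand for Hmgcs1, chr8:64733579-64733728 on the minus strand for Msmo1, chr8:122443423-122443572 on the minus strand for Mvd and chr7:97417551-97417700 on the minus strand for Thrsp.
Hmgcs1: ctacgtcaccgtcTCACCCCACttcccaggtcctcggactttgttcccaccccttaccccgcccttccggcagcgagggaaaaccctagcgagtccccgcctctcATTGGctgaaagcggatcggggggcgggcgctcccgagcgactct
Msmo1: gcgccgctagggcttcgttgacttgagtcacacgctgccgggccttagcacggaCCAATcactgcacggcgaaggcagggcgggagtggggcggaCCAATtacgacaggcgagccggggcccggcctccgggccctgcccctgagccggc
Mvd: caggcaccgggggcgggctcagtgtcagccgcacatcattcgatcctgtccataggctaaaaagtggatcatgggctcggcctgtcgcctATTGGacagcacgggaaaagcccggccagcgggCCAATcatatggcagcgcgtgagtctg
Thrsp: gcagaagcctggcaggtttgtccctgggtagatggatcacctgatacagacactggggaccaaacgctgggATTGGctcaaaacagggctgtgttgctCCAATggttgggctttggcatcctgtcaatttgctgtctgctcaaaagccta

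A CCAAT box stood within 250 bases before the start in 24 of the 30 genes with a sequence, 14 of 15 in the sterol branch, 6 of 11 in the fatty acid branch and 4 of 4 regulators. By window it was in 25 of 40 windows of these genes (62.5%) and in 33.8% of 32851 windows of all genes. TCACNCCAC was found in Hmgcs1 alone among them, against 1.05% of all windows, and the Myc E-box CACGTG in 5 of the 30 (12.5% of their windows against 6.02% of all). No capitalised motifs overlapped in the printed stretches. These letter matches are a description and not measured binding.

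Hunk itself had a mean log2 signal of 2.95 ± 0.17 on knockout arrays and of 4.21 ± 1.05 on wild-type arrays (SD, n = 6 each). It was at or below array background on 6 of 6 knockout and 2 of 6 wild-type arrays, and whether its probes lie in the deleted part was not checked. Knockout arrays 4 and 5 were the closest pair (SD of their difference over probe sets 0.338, against 0.531 for the next pair). The 3' minus 5' signal of the beta-actin control probe sets, a sign of RNA integrity, averaged 1.51 ± 0.15 on knockout and 1.29 ± 0.05 on wild-type arrays (SD, n = 6 each). The luminal keratin Krt18 lay between 11.29 and 13.14 on all 12 arrays, while the mean of the luminal markers was higher in the knockout, as given with the other markers. In bulk tumours fewer cells of a type and less RNA per cell cannot be told apart. By limma at an adjusted p under 0.05, 113 of all genes rose and 115 fell, or 68 and 126 with arrays centred on the medians of all their probe sets. The total of 228 went to 137, 134, 131, 94 and 149 without knockout array 4, 5 or 6 or wild-type array 4 or 5.

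In the comparison of knockout with wild type, most sterol and fatty acid genes were higher in the knockout but none passed the test over all genes. Of the 31 tested, 26 had a positive log2 change and 5 a negative one, with a median change of 0.34 against 0.01 over all genes tested, of which 50.8% were positive. By limma with Benjamini-Hochberg adjustment 0 of 31 were called in either direction, where 3.34% of all genes were, and the smallest adjusted p was 0.0566. At an unadjusted limma p under 0.05, 10 of the 31 (32.3%) were higher and 0 lower, where 8.97% of all genes were higher and 10.5% lower. The genotypes overlapped for every one of the 31, where 3.15% of all genes had no overlap (1.71% higher and 1.44% lower in the knockout). With an ordinary linear model in place of limma's moderated test, 0 members were called as well. 1 member passed without wild-type array 2 (Msmo1, adjusted p = 0.0447) and 1 without wild-type array 3 (Scd2, adjusted p = 0.0321).

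**Figure D1:**
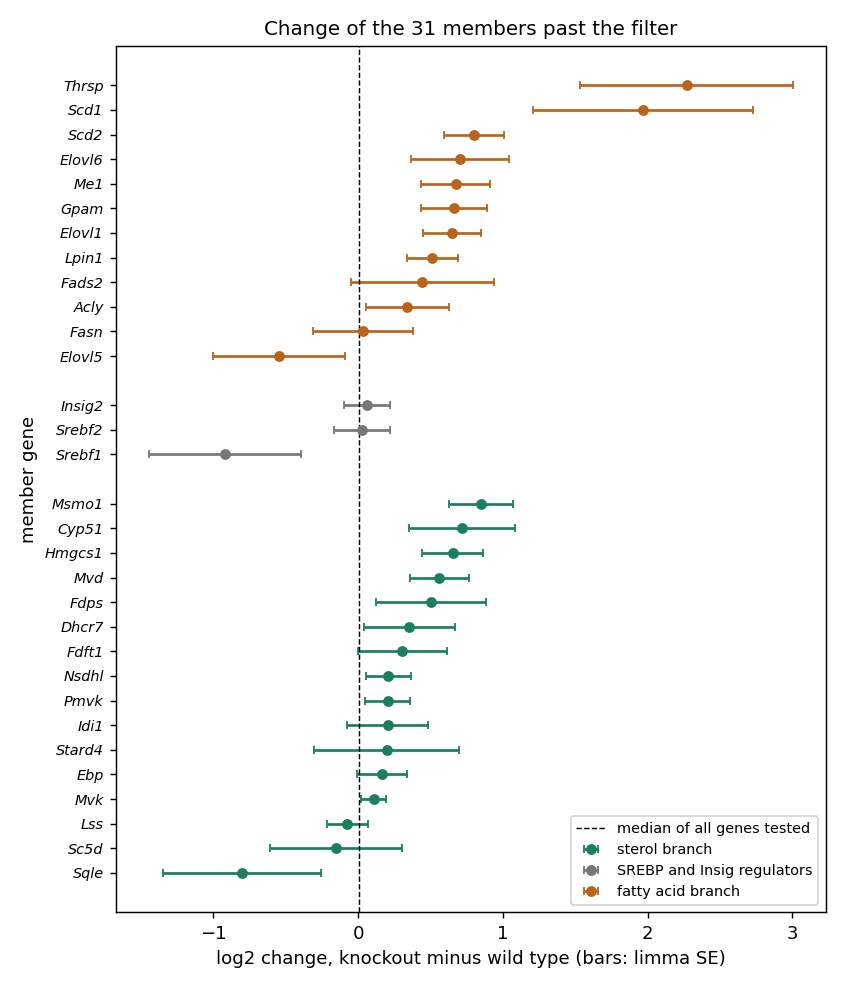
Log2 change, knockout minus wild type, of the 31 genes past the filter, grouped by branch, with limma standard errors as bars and the median of all 6825 genes tested as a dashed line. 11 of 12 fatty acid genes and 13 of 16 sterol genes lie above 0, with Thrsp (2.27) and Scd1 (1.97) farthest right and Srebf1 (-0.92) and Sqle (-0.80) farthest left.

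The branches had different medians. The fatty acid branch had a median log2 change of 0.66, with 11 of 12 genes positive and 7 at an unadjusted limma p under 0.05. The sterol branch had a median of 0.21, with 13 of 16 positive and 3 at that level, and its median was 0.48 with the beta-actin difference as covariate and 0.36 without knockout array 6. Over all genes tested 50.8% were positive, and at that level 8.97% were higher and 19.5% differed in either direction. The sterol count of 3 of 16 was close to the share in either direction. The sterol median was thus 0.45 below the fatty acid median on the log2 scale, and 0.19 below it without knockout array 6. It was 0.22 below with the milk marker mean as a covariate, 0.30 below with the adipocyte marker mean and 0.21 below with the beta-actin difference. No test was made of this difference, since the genes were chosen with results of these arrays known. The 3 regulators had a median of 0.03, with Srebf1 the only one above 0.1 in size on the probe sets used. Other probe sets of Srebf2 and Insig2 had larger changes, as given below.

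In the sterol branch 3 genes, Hmgcs1, Mvd and Msmo1, had an unadjusted limma p under 0.05. Hmgcs1, which joins acetyl-CoA and acetoacetyl-CoA to HMG-CoA, ranged from 8.04 to 8.85 (median 8.52) in the knockout and from 7.39 to 8.47 (median 7.81) in the wild type. Knockout arrays 1, 2 and 5 were above all wild-type arrays, and wild-type array 3 was the highest of its genotype. The means were 8.49 ± 0.36 and 7.84 ± 0.40 (SD, n = 6 each), a 1.57-fold difference (limma adjusted p = 0.119, exact two-sided permutation p = 0.0173). Its other 3 probe sets past the filter had changes of 0.81, 0.48 and 0.23, all positive. The probe set used, like that of Elovl1, carries the suffix _x_at and may match related transcripts.

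Among the later mevalonate enzymes Mvd, the decarboxylase that makes isopentenyl diphosphate, ranged from 5.65 to 6.84 (median 6.26) in the knockout and from 5.50 to 5.92 (median 5.75) in the wild type. Knockout arrays 1, 3, 4 and 5 exceeded every wild-type array, and knockout array 6 lay inside the wild-type range. The log2 change of 0.56 (SE 0.20) had an adjusted limma p of 0.152, and 0.0429 with the adipocyte marker mean as a covariate, where the change was 0.86. The mevalonate kinases differed little, with changes of 0.11 (SE 0.09) for Mvk and 0.20 (SE 0.16) for Pmvk. Idi1, the isomerase of the isoprene unit, had a change of 0.20 (SE 0.28), which turned negative without knockout array 2, with the adipocyte covariate or with its most variable probe set. Fdps, which makes farnesyl diphosphate, had a change of 0.50 (SE 0.38).

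At the squalene step the values were mixed. Fdft1, squalene synthase, had a change of 0.31 (SE 0.31). Sqle, the squalene epoxidase and a control point of the pathway, ranged from 4.53 to 8.42 (median 6.82) in the knockout and from 6.84 to 8.26 (median 7.08) in the wild type. The knockout arrays spread far more widely here, with arrays 6, 3 and 5 at 4.53, 5.27 and 6.79 below all wild-type arrays and array 1 at 8.42 above all of them. The difference of -0.80 (SE 0.55, limma adjusted p = 0.423, exact permutation p = 0.197) was within this spread and became 0.43 with the beta-actin signal difference in the model. It was -0.42 without knockout array 6, -1.20 without knockout array 1 and -0.25 with the adipocyte covariate. Lss, which cyclises squalene epoxide to lanosterol, had a change of -0.07 (SE 0.14).

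Of the enzymes that turn lanosterol into cholesterol, Msmo1 differed most clearly. Msmo1, the methylsterol monooxygenase, ranged from 4.88 to 5.92 (median 5.38) in the knockout and from 3.77 to 5.05 (median 4.61) in the wild type. All knockout arrays but array 6 exceeded all wild-type arrays, and wild-type array 1 was the lowest. The means of 5.41 ± 0.39 and 4.56 ± 0.43 (SD, n = 6 each) differed 1.81-fold (limma adjusted p = 0.057, exact permutation p = 0.00433). Cyp51, the lanosterol demethylase, ranged from 5.58 to 7.73 in the knockout and from 5.37 to 7.08 in the wild type (change 0.72, SE 0.36, limma adjusted p = 0.299). Dhcr7, which makes cholesterol from its last precursor, had a change of 0.35 (SE 0.31) with knockout array 1 at 9.23, and of 0.09 without that array.

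The remaining sterol genes had smaller differences. Nsdhl, the sterol dehydrogenase, had a change of 0.21, the isomerase Ebp 0.17 and the desaturase Sc5d -0.15, none with an unadjusted limma p under 0.05. Sc5d turned positive without knockout array 6 or with the beta-actin covariate. Stard4, a carrier of cholesterol between membranes, ranged from 4.95 to 8.06 in the knockout and from 5.73 to 7.59 in the wild type. Its change of 0.20 (SE 0.50) turned negative without knockout array 4 or 5, with these 2 arrays averaged and with the beta-actin covariate. Hsd17b7 and Tm7sf2 were at or below array background on all 12 arrays and have no measured change here.

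**Figure D2:**
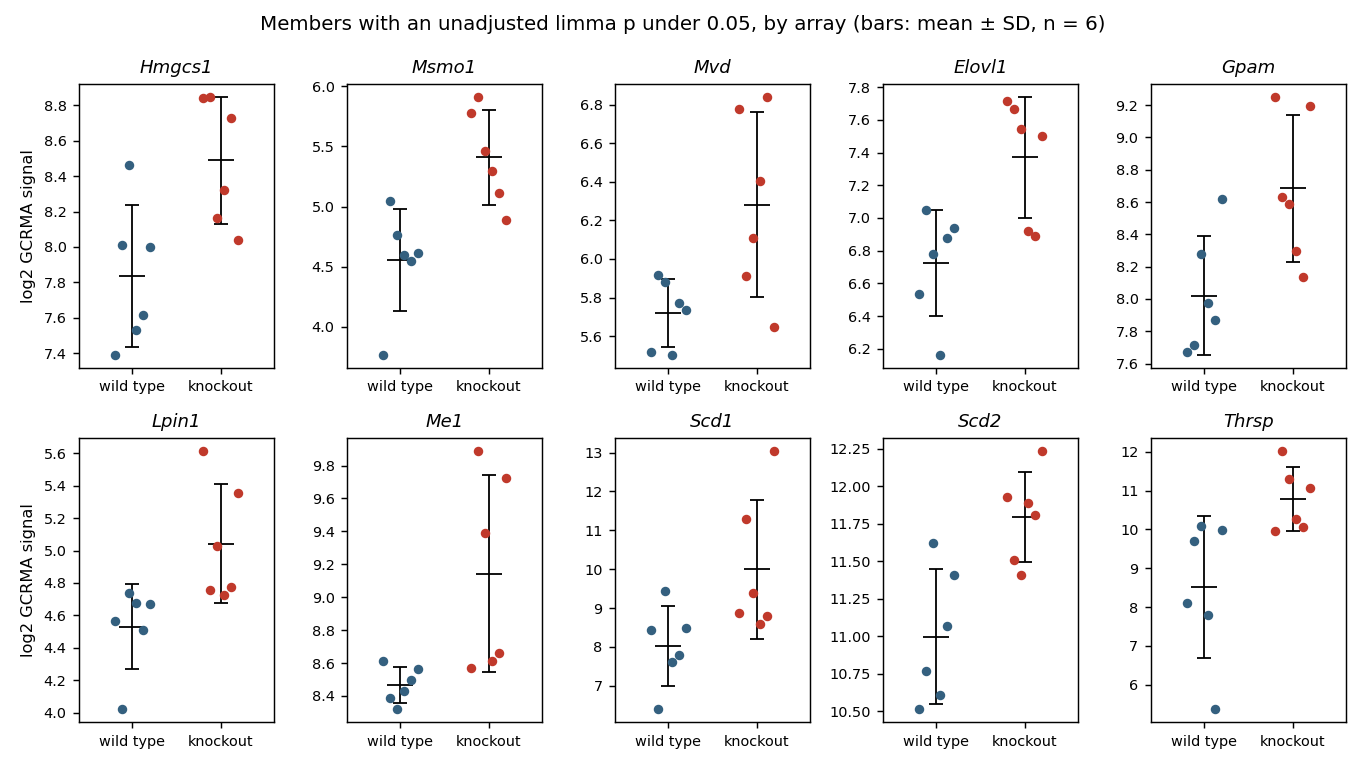
Log2 GCRMA signal of the 10 genes with an unadjusted limma p under 0.05, 1 point per array, with mean and SD as bars (n = 6 per genotype). Every panel has a higher knockout mean, and in each at least 1 knockout array lies within the wild-type range.

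Among the regulators Srebf1 had the largest difference. Srebf1, which encodes SREBP-1, ranged from 7.69 to 10.13 (median 8.20) in the knockout and from 7.12 to 9.94 (median 9.82) in the wild type. Wild-type array 2, at 7.12, was the lowest of all, and the other 5 wild-type arrays lay between 9.79 and 9.94. All knockout arrays but array 6 were below those 5. The log2 change of -0.92 (SE 0.53) did not pass (limma adjusted p = 0.347), and without wild-type array 2 it was -1.38 (adjusted p = 0.0681). Srebf2, which encodes SREBP-2, had a change of 0.03 (SE 0.20), its sign turning in 8 alternatives, and another probe set at -0.36. Insig2 had a change of 0.06 (SE 0.16), and its other probe sets past the filter were at 0.32 and 0.31.

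In the fatty acid branch the genes of acetyl-CoA supply and chain building had small differences. Acly, the citrate lyase that releases cytosolic acetyl-CoA, ranged from 9.92 to 11.32 in the knockout and from 9.83 to 11.13 in the wild type (change 0.34, SE 0.28). Fasn, the fatty acid synthase, ranged from 8.08 to 10.02 (median 8.73) in the knockout and from 7.70 to 9.12 (median 9.04) in the wild type. Knockout array 6 was the highest and wild-type array 1 the lowest, and the means of 8.83 and 8.79 differed by 0.04 (SE 0.34, limma adjusted p = 0.961). The sign of this change turned with median centring, array weights, each of the 3 covariates and without knockout array 2 or 6 or wild-type array 1. Acaca, acetyl-CoA carboxylase and the classic AMPK substrate, was not above background on any array with its only probe set.

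Me1 and Thrsp, which support fatty acid synthesis, were higher in the knockout. Me1, the malic enzyme that supplies NADPH, ranged from 8.57 to 9.89 (median 9.03) in the knockout and from 8.32 to 8.61 (median 8.46) in the wild type. Knockout arrays 2, 3 and 6 stood well apart at 9.39 to 9.89, while arrays 1, 4 and 5 lay at 8.57 to 8.66, close to the wild type. The log2 change was 0.67 (SE 0.24, limma adjusted p = 0.143, exact permutation p = 0.00433). Thrsp, a nuclear protein induced with lipogenesis, ranged from 9.96 to 12.03 (median 10.67) in the knockout and from 5.37 to 10.09 (median 8.91) in the wild type. Knockout arrays 2, 3, 4 and 6 were above every wild-type array, and wild-type array 5 was far below the others. The means differed 4.82-fold (log2 change 2.27, SE 0.74, limma adjusted p = 0.119, exact permutation p = 0.0108), and its other probe set had a change of 1.94. Without wild-type array 5 the log2 change of Thrsp was 1.64, below that of Scd1 in the same fit (1.92).

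Both stearoyl-CoA desaturases, which make monounsaturated fatty acids, were higher. Scd2 ranged from 11.41 to 12.24 (median 11.85) in the knockout and from 10.51 to 11.62 (median 10.92) in the wild type. Knockout arrays 1, 4, 5 and 6 were above all wild-type arrays, of which array 3 was the highest. The means differed 1.74-fold (log2 change 0.80, SE 0.21, n = 6 each), with a limma adjusted p of 0.0566 and an exact permutation p of 0.00866. Scd2's other probe sets had changes of 0.93 and 0.71. Scd1 ranged from 8.58 to 13.04 (median 9.13) in the knockout and from 6.40 to 9.44 (median 8.11) in the wild type. Knockout arrays 6 and 2, at 13.04 and 11.30, were above all wild-type arrays, and the other 4 knockout arrays were not. Its 3.92-fold difference (log2 change 1.97, SE 0.76) had a limma adjusted p of 0.172 and an exact permutation p of 0.026.

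The elongases were mixed. Elovl1, which extends very long chains, ranged from 6.89 to 7.71 in the knockout and from 6.16 to 7.05 in the wild type, a change of 0.65 (SE 0.20, limma adjusted p = 0.0986). Knockout arrays 1, 2, 3 and 6 were above all wild-type arrays, and arrays 4 and 5 lay within the wild-type range. Elovl6, which extends palmitate, had a change of 0.70 (SE 0.34, adjusted p = 0.275). Elovl5, which extends polyunsaturated chains, went the other way at -0.55 (SE 0.46, adjusted p = 0.512), from 5.98 to 8.81 in the knockout and 6.57 to 8.52 in the wild type. The desaturase Fads2 had a change of 0.44 (SE 0.49), with wild-type arrays 1 and 2 low at 4.10 and 4.25. Fads1 was at or below background on 5 of 6 knockout and 3 of 6 wild-type arrays, and wild-type array 3 was the highest at 7.01.

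The 2 glycerolipid genes also had positive changes. Gpam, the mitochondrial acyltransferase that starts triglyceride synthesis, ranged from 8.14 to 9.25 (median 8.61) in the knockout and from 7.67 to 8.62 (median 7.92) in the wild type. Knockout arrays 1, 2 and 6 were above all wild-type arrays, and the change was 0.66 (SE 0.23, limma adjusted p = 0.136, exact permutation p = 0.0238). Lpin1, the phosphatidate phosphatase, ranged from 4.73 to 5.62 (median 4.90) in the knockout and from 4.02 to 4.74 (median 4.62) in the wild type. All knockout arrays but array 4 were above every wild-type array, arrays 2 and 5 only narrowly, and the change was 0.51 (SE 0.18, limma adjusted p = 0.136, exact permutation p = 0.00433). Lpin1's other probe set had a change of 1.00.

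**Figure D3:**
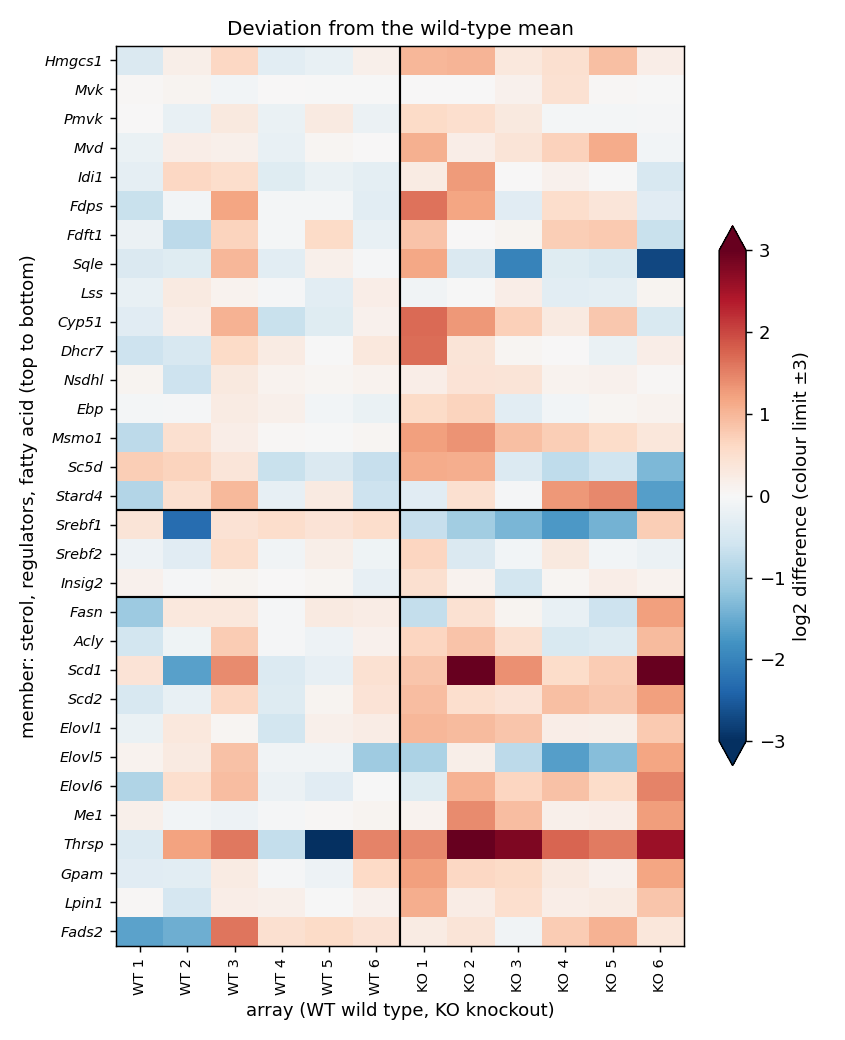
Deviation of each of the 31 genes from its wild-type mean (log2 scale, colour limits at -3 and 3, values beyond them drawn at the limit), with the 6 wild-type arrays left of the vertical line and horizontal lines between sterol genes, regulators and fatty acid genes. Knockout array 6 is blue for Sqle, Stard4 and Sc5d and dark red for Scd1, and knockout array 1 is red for Cyp51, Dhcr7 and Fdps.

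Knockout arrays differed from each other more than the wild-type arrays did. The median SD of the 31 genes was 0.59 in the knockout and 0.44 in the wild type, against 0.32 and 0.30 over all genes tested. Knockout array 6 had the lowest value of its genotype for 12 of 16 sterol genes and the highest for 6 of 12 fatty acid genes, while arrays 1 and 2 were the highest for 7 and 5 sterol genes. As array means, the sterol branch ranged from 6.24 (array 6) to 7.45 (array 1) in the knockout and the fatty acid branch from 8.18 (array 5) to 9.42 (array 6). In the wild type both branches were lowest on array 1 (6.40 and 7.51) and highest on array 3 (7.18 and 8.62). Wild-type array 3 alone was the highest for 10 of 16 sterol and 8 of 12 fatty acid genes.

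Pairs of genes were then set against each other within each genotype, 14 relations in all, by exact permutation of pairings. Hmgcs1 and Fasn, 1 gene of each branch, had r = -0.59 (exact p = 0.211) and rho = -0.43 (exact p = 0.419) in the knockout. In the wild type they had r = 0.66 (exact p = 0.168) and rho = 0.89 (exact p = 0.0333). The adjusted p-values were 0.401 and 0.58 in the knockout, and 0.401 and 0.408 in the wild type. Without the 2 arrays farthest from the median of Hmgcs1, r was 0.05 in the knockout and 0.64 in the wild type. None of the other relations reached an adjusted p under 0.05 either, and whether the genotypes differ in this relation was not tested.

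**Figure D4:**
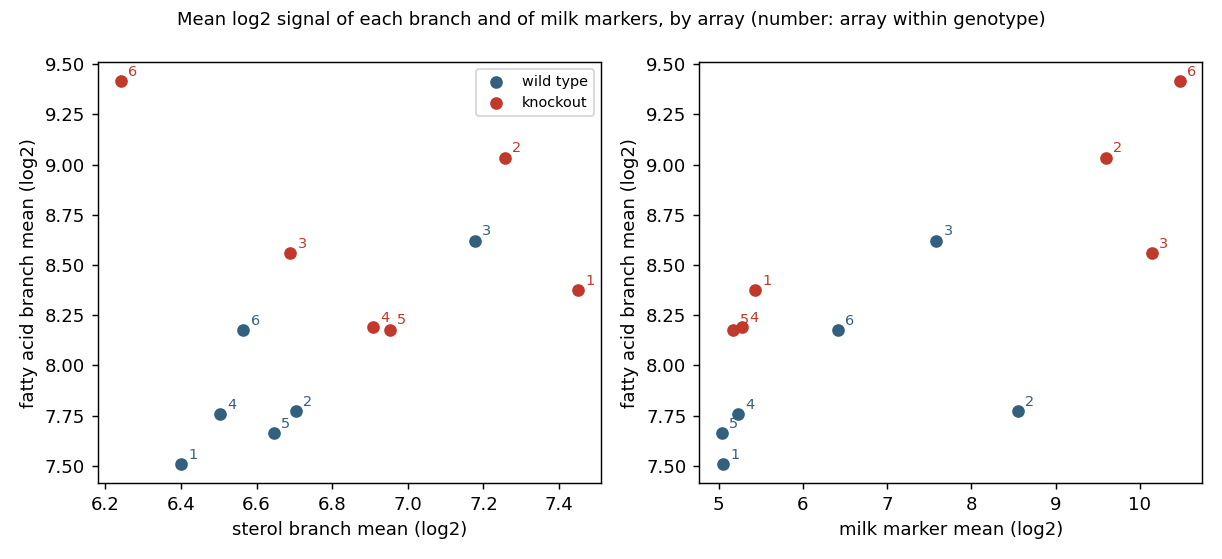
Mean log2 signal of the fatty acid branch against that of the sterol branch (left) and of 14 milk markers (right), 1 numbered point per array. Knockout array 6 combines the lowest sterol mean (6.24) with the highest fatty acid mean (9.42), and knockout arrays 2, 3 and 6 have the highest milk marker means.

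Some markers of milk production, luminal cells and fat cells also differed between the genotypes or between arrays of a genotype. Csn2, beta-casein, was 13.67 to 14.22 on knockout arrays 2, 3 and 6 and 2.24 to 2.30 on knockout arrays 1, 4 and 5. The former are the 3 arrays on which Me1 stood apart. In the wild type Csn2 was at 12.85 and 12.48 on arrays 2 and 3 and at most 2.25 on the other 4. Me1 went the other way there, at 8.39 and 8.32 on wild-type arrays 2 and 3 and at 8.43 to 8.61 on the other 4. Of 13 milk markers tested 2 rose (Ltf and Elf5), 0 fell and 11 did not pass. Among all genes tested 1.66% rose and 1.68% fell. Over all 14 milk markers the summed level was 11.5 to 16.1 in the knockout and 11.9 to 15.0 in the wild type (log2 of the summed signals). Csn3, the milk marker of highest mean, was the only 1 tested with a negative change (-2.25, limma adjusted p = 0.419). It was 5.48, 7.37 and 6.95 on knockout arrays 1, 4 and 5 and at least 11.15 on every wild-type array. With the milk marker mean, which includes Csn3, or the adipocyte marker mean as a covariate it was called lower. With the milk marker mean as a covariate the fatty acid median was 0.52 and the sterol median 0.31. With 1 array left out the call of Ltf was lost in 11 of 12 fits and that of Elf5 in 10.

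The mean log2 signal of the luminal epithelial markers was also higher in the knockout, though their changes were uneven. This mean was 9.73 to 10.37 on knockout and 8.78 to 9.44 on wild-type arrays, without overlap. Their summed level did overlap, at 14.1 to 14.6 and 13.6 to 14.3. Of the 10 markers 8 had a positive change, 2 rose, 0 fell and 8 did not pass, where 1.66% of all genes rose and 1.68% fell. The 2 that rose, named after their values were seen, were Krt19, a keratin (log2 change 4.08, limma adjusted p = 0.0424), and Cd24a, a surface glycoprotein (0.87, adjusted p = 0.0244). The other changes were Muc1 2.35, Cldn4 1.08, Cldn3 0.52, Krt8 0.39, Cldn7 0.21, Cdh1 0.14, Krt18 -0.17 and Epcam -0.19. Krt19 and Muc1 contributed most to the difference in the mean log2 signal. The call of Krt19 was lost in 9 of 12 fits with 1 array left out and that of Cd24a in 2, without knockout array 5 or wild-type array 4, and both were lost with the beta-actin covariate. Of 8 macrophage markers 7 had a negative change, with 0 called by limma after adjustment. At an unadjusted limma p under 0.05, 3 were lower, the complement genes C1qa (-0.52), C1qb (-0.66) and C1qc (-1.03), and 1 higher, Cd14 (1.24). All 4 were named after their values were seen. Among all genes tested 8.97% were higher and 10.5% lower at that level. The summed level of the macrophage markers was 10.68 to 11.95 in the knockout and 10.88 to 11.76 in the wild type. The part of luminal and macrophage content in the differences of the lipid genes was not tested.

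Of 15 adipocyte markers 13 were measured. Cidec, Retn, Lep, Lipe, Plin4 and Pparg were at or below background on every array, and Adipoq was above it only on knockout array 2 (6.29). The summed level was 9.70 to 12.3 in the knockout and 9.20 to 10.6 in the wild type, and Fabp4, the adipocyte fatty acid carrier, ranged from 6.89 to 11.19 and from 5.17 to 8.22. All 5 markers tested had a positive change. At an unadjusted limma p under 0.05, 3 were higher and 0 lower, where 8.97% of all genes were higher and 10.5% lower. The 3 were Car3 (log2 change 2.36, and -0.21 with the beta-actin covariate), Fabp4 (1.51) and the lipase Pnpla2. After adjustment 1 rose, Pnpla2 (log2 change 0.67, limma adjusted p = 0.0305), and 0 fell, where 1.66% of all genes rose and 1.68% fell. That call was lost in 14 of 29 alternatives, among them those without knockout array 4 or 5 or without wild-type array 1, 2, 4, 5 or 6. The mean of the adipocyte markers was highest on knockout arrays 2, 6 and 3 (6.07, 5.22 and 4.99), which are also the knockout arrays with high Csn2. As a covariate it therefore cannot tell fat cells from milk production among the knockout arrays. With the adipocyte mean as a covariate the log2 change of Thrsp was 1.33, that of Scd1 1.09 and that of Me1 0.23, each at least 1.5 times smaller, whereas Scd2 had 0.93 and Gpam, Elovl1 and Msmo1 stayed positive. With the beta-actin covariate Me1 was at 0.33 and Scd2 at 1.03. The part of fat cells in these differences was not tested further.

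Outside the 37 genes, the enzymes around the fatty acid branch included clearer changes. Of 25 further fatty acid, NADPH and triglyceride genes with a probe set, 18 were tested, and 4 rose, 0 fell and 14 did not pass, where 1.66% of all genes rose and 1.68% fell. At an unadjusted limma p under 0.05, 7 were higher and 1 lower, where 8.97% of all genes were higher and 10.5% lower. The lower one was Acsl5 (log2 change -0.42), and the higher ones included Tecr (0.40) and Elovl4 (2.58). Elovl4 was at or below background on 3 of 6 knockout and 5 of 6 wild-type arrays. Of the 18 changes 11 were positive and 7 negative, with a median of 0.18. Of 11 further sterol transport, storage and SREBP processing genes tested, 0 rose and 0 fell by limma, and at the unadjusted level 0 were higher and 1 lower, the sterol carrier Stard3 (log2 change -0.86).

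Tkt and Pgd, enzymes of the pentose phosphate pathway, of which Pgd makes NADPH, rose with no overlap between genotypes. Tkt lay between 13.28 and 13.85 in the knockout and between 12.16 and 12.91 in the wild type. Its means of 13.48 ± 0.21 and 12.51 ± 0.24 (SD, n = 6 each) differed 1.95-fold (limma adjusted p = 0.00191). Pgd lay between 11.20 and 11.81 in the knockout and between 9.83 and 10.99 in the wild type, a 2.27-fold difference (limma adjusted p = 0.00463). The probe sets used for these genes also carry the suffix _x_at and may match related transcripts. Tkt and Pgd kept their call without any 1 array. Both lost it with the beta-actin covariate, which nearly follows genotype (limma adjusted p = 0.0624 and 0.0742), where the changes were 0.75 and 1.08.

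Dgat1, which makes triglyceride from diglyceride, was 3.96-fold higher (limma adjusted p = 0.0222). It lay between 8.002 and 9.72 in the knockout and between 5.52 and 7.91 in the wild type, again without overlap. Its call was lost without wild-type array 4 (log2 change 1.87, adjusted p = 0.0567), with the beta-actin covariate (2.43, adjusted p = 0.0682) and with an ordinary linear model (1.99, adjusted p = 0.0564). Hacd3, a dehydratase of chain elongation, lay between 8.76 and 9.34 in the knockout and between 8.46 and 8.82 in the wild type, so that knockout array 3 overlapped wild-type array 5. The log2 change of 0.56 (SE 0.12) had a limma adjusted p of 0.0282 and was lost in 14 of 29 alternatives, among them those without knockout array 2, 5 or 6 or wild-type array 1, 3, 4 or 6, at adjusted p-values of 0.0501 to 0.0723. Acss2, which makes acetyl-CoA from acetate, lay above the wild type on all 6 knockout arrays, at 6.61 to 6.81 on arrays 1, 2 and 6 and 4.70 to 5.20 on the others, but did not pass (log2 change 1.31, SE 0.38, limma adjusted p = 0.0836).

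**Figure D5:**
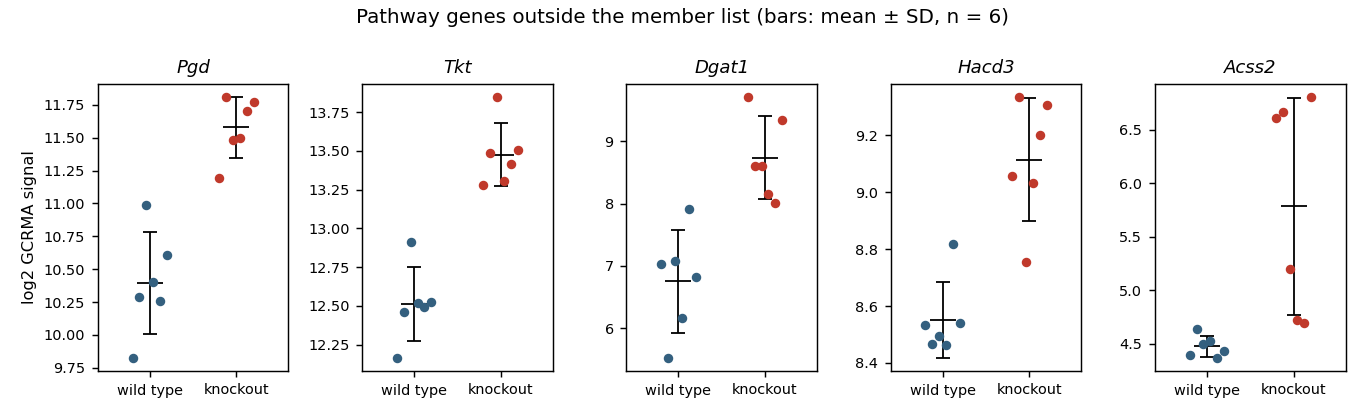
Log2 GCRMA signal of 5 pathway genes outside the list, 1 point per array, with mean and SD as bars (n = 6 per genotype). The genotypes do not overlap for Pgd, Tkt, Dgat1 and Acss2 and overlap for Hacd3, where 1 knockout array (8.76) lies below the highest wild-type array (8.82).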

How the data were processed

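Per the submitters' processing notes, GCRMA was run by the authors, with no version given. The deposited values are log2 signals of 22690 probe sets on 12 Affymetrix arrays, with 0 unused columns. They were used without further normalization. GCRMA compresses changes near background. Array background was the highest Bacillus control probe set (3.45 to 4.00). Gene symbols came from the platform table and were brought up to date by Entrez ID with RefSeq. Probe sets with several symbols were not named.

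Genes whose probe set had a mean over the 12 arrays above 3.98, the median of all probe sets, were tested with limma 3.58.1 under R 4.3.3. The model held genotype alone, eBayes used an intensity trend, and p-values were adjusted over 6825 genes (Benjamini-Hochberg, threshold 0.05). Exact permutation tests were two-sided over 924 splits of 6 against 6, with a smallest possible p of 0.00216. The fit was tested on simulated data. The genes described and the lists were chosen with earlier results of these data known. All 37 genes could be named, with array values for those at an unadjusted p under 0.05 and the 3 largest changes of each branch, and pathway genes at that level. The labels name no batch. A correlation of Hmgcs1 with Insig1 was planned and not run, since Insig1 was not analysed here. Correlations with Csn2 are not given, since its values fell into separate sets. Figures were drawn with matplotlib 3.10.9.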

Additional observations from a re-analysis of the deposited data

Results flagged for a closer look

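For each of the 31 tested genes in each genotype (62 groups of 6 arrays), the gap between the most extreme array and its nearest neighbour was set against Dixon's critical value. Chance gives about 1 in 20 groups, and 7 were found. Wild-type array 2 was the lowest by such a gap for Srebf1 (7.12, next 9.79), Nsdhl (5.97, next 6.67) and Lpin1 (4.02, next 4.51). Wild-type array 1 was the lowest for Fasn (7.70, next 8.76), and wild-type array 3 was the highest for Fdps (8.61, next 7.35). Knockout array 1 was the highest for Dhcr7 (9.23, next 7.92), and knockout array 4 for Mvk (5.08, next 4.75).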

How the results depend on the processing

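The sterol median (0.21) ranged from 0.15 with median centring to 0.48 with the beta-actin covariate, a move of over 1.5 times. The move was below the SD between arrays (0.31) of the median deviation of the branch from its genotype means. The fatty acid median (0.66) and the difference of the medians (-0.45) also moved by less than their SDs (0.40 and 0.51) in the alternatives run, the difference to -0.21 with the beta-actin covariate. The 0.51 combines the 2 branch SDs as if independent. It is a spread of single arrays and exceeds the size of the difference itself, so it cannot show that the difference was unchanged. With 1 array left out the sterol median, the fatty acid median and their difference ranged from 0.16 to 0.36, from 0.55 to 0.74 and from -0.50 to -0.19, the last value without knockout array 6. The regulator median (0.03) was -0.43 with the filter at the 75th percentile. There Srebf2 dropped out, and only Srebf1 (-0.92) and Insig2 (0.06) remained, with their changes as before. The regulator median was -0.36 with the most variable probe set and 0.36 with the beta-actin covariate, and from -0.10 to 0.08 with 1 array left out. The 0 genes of the list past the threshold became 1 with the filter at the 75th percentile (Scd2), array weights (Msmo1) and the adipocyte covariate (Mvd), and 0 to 1 with 1 array left out. Those at an unadjusted p under 0.05 (10) ranged from 9 to 13 with 1 array left out. The count over all genes (228) was 112 with no filter, 89 with the ordinary linear model, 390 with array weights, 72 with the beta-actin covariate, 124 with knockout arrays 4 and 5 averaged and 94 to 210 with 1 array left out, and the cause was not tested. With the replicate number as a block 69 genes and 0 of the list passed. Under the block the calls of Dgat1, Hacd3, Pnpla2 and Ltf were lost (adjusted p = 0.0592, 0.0854, 0.0904 and 0.0813), and no other call of a gene named here was. Nothing in the labels says that the numbers pair arrays, correlations of same-numbered arrays were -0.02 to 0.14, and 3 of 6 knockout arrays were closest to the wild-type array of their number. Signals near background limit Acaca, Fads1, Hsd17b7 and Tm7sf2.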
